A study of Homo sapiens with 7 samples.

Results

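The glycolytic enzyme genes examined here were 10 of the 19626 protein-coding genes on chromosomes 1 to 22 and X whose strand was known. They encode glucose-6-phosphate isomerase (GPI), aldolase A (ALDOA), triosephosphate isomerase (TPI1), glyceraldehyde-3-phosphate dehydrogenase (GAPDH), phosphoglycerate kinase 1 (PGK1), phosphoglycerate mutase 1 (PGAM1), enolase 1 (ENO1), muscle-type pyruvate kinase (PKM) and the A and B chains of lactate dehydrogenase (LDHA, LDHB). The genes were taken as named, by their RefSeq coordinates on GRCh38, and the rule used no measured value, although earlier results of these data were known when the genes were picked. Each gene was read in a window from 1 kb before its first base to 10 kb past its last base, and the 10 windows held 285 kb in all. All 10 windows held a peak in at least 1 library, as did 68% of the windows of all protein-coding genes, and each did so in both groups.

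The measurement was chromatin immunoprecipitation sequencing (ChIP-seq) of HEK293, an established human embryonic kidney cell line, with antibody 6D7 against phosphothreonine 4 (pThr4) of the polymerase tail. By the labels, lysate of nuclei was split, and matched portions received either active SCP1, a phosphatase of serine 5 on that tail (SCP1_WT), or SCP1 with the D96A change, which has no catalytic activity (SCP1_D96A). Each group held 3 biological replicates, all from the same cell line with no other treatment named, and the libraries were read as peak lists. SCP1 was added to lysate and not to living cells, so the groups differ in what was done to the chromatin after harvest. The IgG control was not analysed here. The study asked where pThr4 becomes detectable once phosphate on serine 5 has been removed.

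RNA polymerase II carries a long tail of repeated heptads, and the phosphates on this tail change as the enzyme moves from the start of a gene to its end. Serine 5 phosphate is best known from the start of genes, where the polymerase leaves the promoter, while threonine 4 phosphate is known from the region past the polyadenylation site, where transcription ends. An antibody to a residue may fail to bind when its neighbour is also phosphorylated, which is the reason for a phosphatase treatment. Glycolysis turns glucose into pyruvate, and lactate dehydrogenase turns pyruvate into lactate. The genes of this pathway are among the most heavily transcribed in cultured cells.

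The whole lists were of very unequal length. With active SCP1, the lists of replicates 1, 2 and 3 held 12625, 6680 and 36892 peaks on the autosomes and X. The inactive lists were shorter, with 2466, 1163 and 2699. The weakest listed peak had a −log10 p-value of 3.08 to 3.79 in the active lists and of 4.2 to 4.6 in the inactive lists, so the active lists admitted weaker peaks. Depth per library is unknown, since the lists hold no counts, and what part depth had in the lengths of the lists was not tested. Peak names carried a pair of numbers whose meaning is not stated and which both groups shared by replicate. The first number was 10 for replicates 1 and 2 and 5 for replicate 3, and the second was 1 for replicate 1 and 2 for replicates 2 and 3. Whether either marks a batch is not known, so values for replicates 1 and 2 alone are given beside the main ones. The labels call the portions matched but do not say that a replicate number marks a lysate. If it does, the comparison is one of 3 pairs, for which an exact sign-flip test can give no p below 0.25. Of 5 epithelial marker genes 4 had a peak in an active library (KRT8 and KRT19 in 1 each, CDH1 and EPCAM in 2 each). None had one in an inactive library, and KRT18 had none at all. Over all protein-coding genes 67.8% had a peak in an active library and 21.3% in an inactive library. Of 5 markers of blood, T cells, liver, muscle and neurons only MYH7 had a peak, in 1 active library.

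Sequence before the start of 4 of the genes is shown because peaks near gene starts were the class found in active libraries alone. TPI1 and ALDOA had such a peak in 2 active libraries and no inactive library, while ENO1 and PGK1 had none in any library. At TPI1 the peaks of active replicates 1 and 3 overlapped the sequence shown, and at ALDOA only the peak of active replicate 3 did. The stretches end at the base before the RefSeq gene boundary (RefSeq promoter table, GRCh38.p14) and are written 5′ to 3′ on the strand of the gene. They lie at chr12:6867281-6867419 (plus strand, 139 bases) for TPI1, chr16:30064029-30064278 (plus strand, 250 bases) for ALDOA, chr1:8878687-8878936 (minus strand, 250 bases) for ENO1 and chrX:78103998-78104247 (plus strand, 250 bases) for PGK1. Capitals mark 3 short motifs on either strand, namely TATAA (the core of the TATA box), GGGCGG (the GC box bound by the factor SP1) and ACGTG (the core of the hypoxia response element).
TPI1: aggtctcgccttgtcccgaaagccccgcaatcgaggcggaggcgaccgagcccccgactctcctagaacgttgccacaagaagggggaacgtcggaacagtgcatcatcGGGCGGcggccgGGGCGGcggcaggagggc
ALDOA: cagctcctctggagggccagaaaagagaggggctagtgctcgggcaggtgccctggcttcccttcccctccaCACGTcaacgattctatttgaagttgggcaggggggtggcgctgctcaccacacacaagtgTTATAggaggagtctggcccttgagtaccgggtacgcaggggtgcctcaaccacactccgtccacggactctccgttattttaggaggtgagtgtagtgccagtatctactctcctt
ENO1: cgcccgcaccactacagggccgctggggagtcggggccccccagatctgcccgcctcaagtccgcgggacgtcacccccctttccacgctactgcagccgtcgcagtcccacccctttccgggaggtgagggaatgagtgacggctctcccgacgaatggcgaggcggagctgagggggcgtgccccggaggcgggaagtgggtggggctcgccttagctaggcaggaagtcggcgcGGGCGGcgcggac
PGK1: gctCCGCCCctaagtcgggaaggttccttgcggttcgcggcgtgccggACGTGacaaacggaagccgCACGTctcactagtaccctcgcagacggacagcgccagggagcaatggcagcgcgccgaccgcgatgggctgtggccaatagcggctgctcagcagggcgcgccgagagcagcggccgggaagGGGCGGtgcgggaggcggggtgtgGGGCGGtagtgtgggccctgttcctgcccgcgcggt

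The TPI1 stretch held 2 GC boxes and its GC content was 69.1%. It stops at the gene boundary, 111 bp short of the first listed start of TPI1, and the 250 bases before that start held 5 GC boxes and a TATA match 28 bp before it. In the ALDOA stretch there was 1 TATA match, 1 hypoxia motif and no GC box. ALDOA had 3 listed starts, and its last lay 1481 bp past the gene boundary. The 250 bases before that last start held 4 GC boxes, 1 hypoxia motif and no TATA match. ENO1 had 1 GC box alone, and PGK1 had 3 GC boxes with 2 hypoxia motifs. All 10 genes were found in the RefSeq promoter table, with 14 starts between them. Over the 250 bases before a listed start, a GC box occurred at 10 of the 14 starts, a hypoxia motif at 8 and a TATA match at 3. Among all 35097 starts of the table the shares were 42.6% for the GC box, 18.5% for the hypoxia motif and 18.9% for the TATA match. These are letter matches and not measured binding sites, and their relation to the peaks was not tested.

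The strongest peaks at the glycolytic genes lay mostly at gene ends in both groups. The 10 windows held 25, 17 and 32 peaks with active SCP1 against 13, 7 and 11 with inactive SCP1, 105 in all. By place, 11, 9 and 14 of the active peaks lay in gene bodies and 9, 7 and 10 at gene ends, while 3, 1 and 2 of the inactive peaks lay in bodies and 9, 4 and 7 at ends. A peak lay within 1 kb of the gene end in 9, 7 and 10 of the genes with active SCP1 and in 9, 4 and 7 with inactive SCP1. Among all protein-coding genes the corresponding shares were 19.97%, 14.5% and 29.9% against 7.65%, 3.97% and 8.12%. Of 60 combinations of gene and library 53 held a peak. The strongest peak by −log10 p-value lay within 1 kb of the gene end in 40 of those 53, farther downstream in 7, inside the gene in 5 and near the start in 1. The place of the strongest peak was not counted over all protein-coding genes, where the gene end was also the most covered zone.

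**Figure D1:**
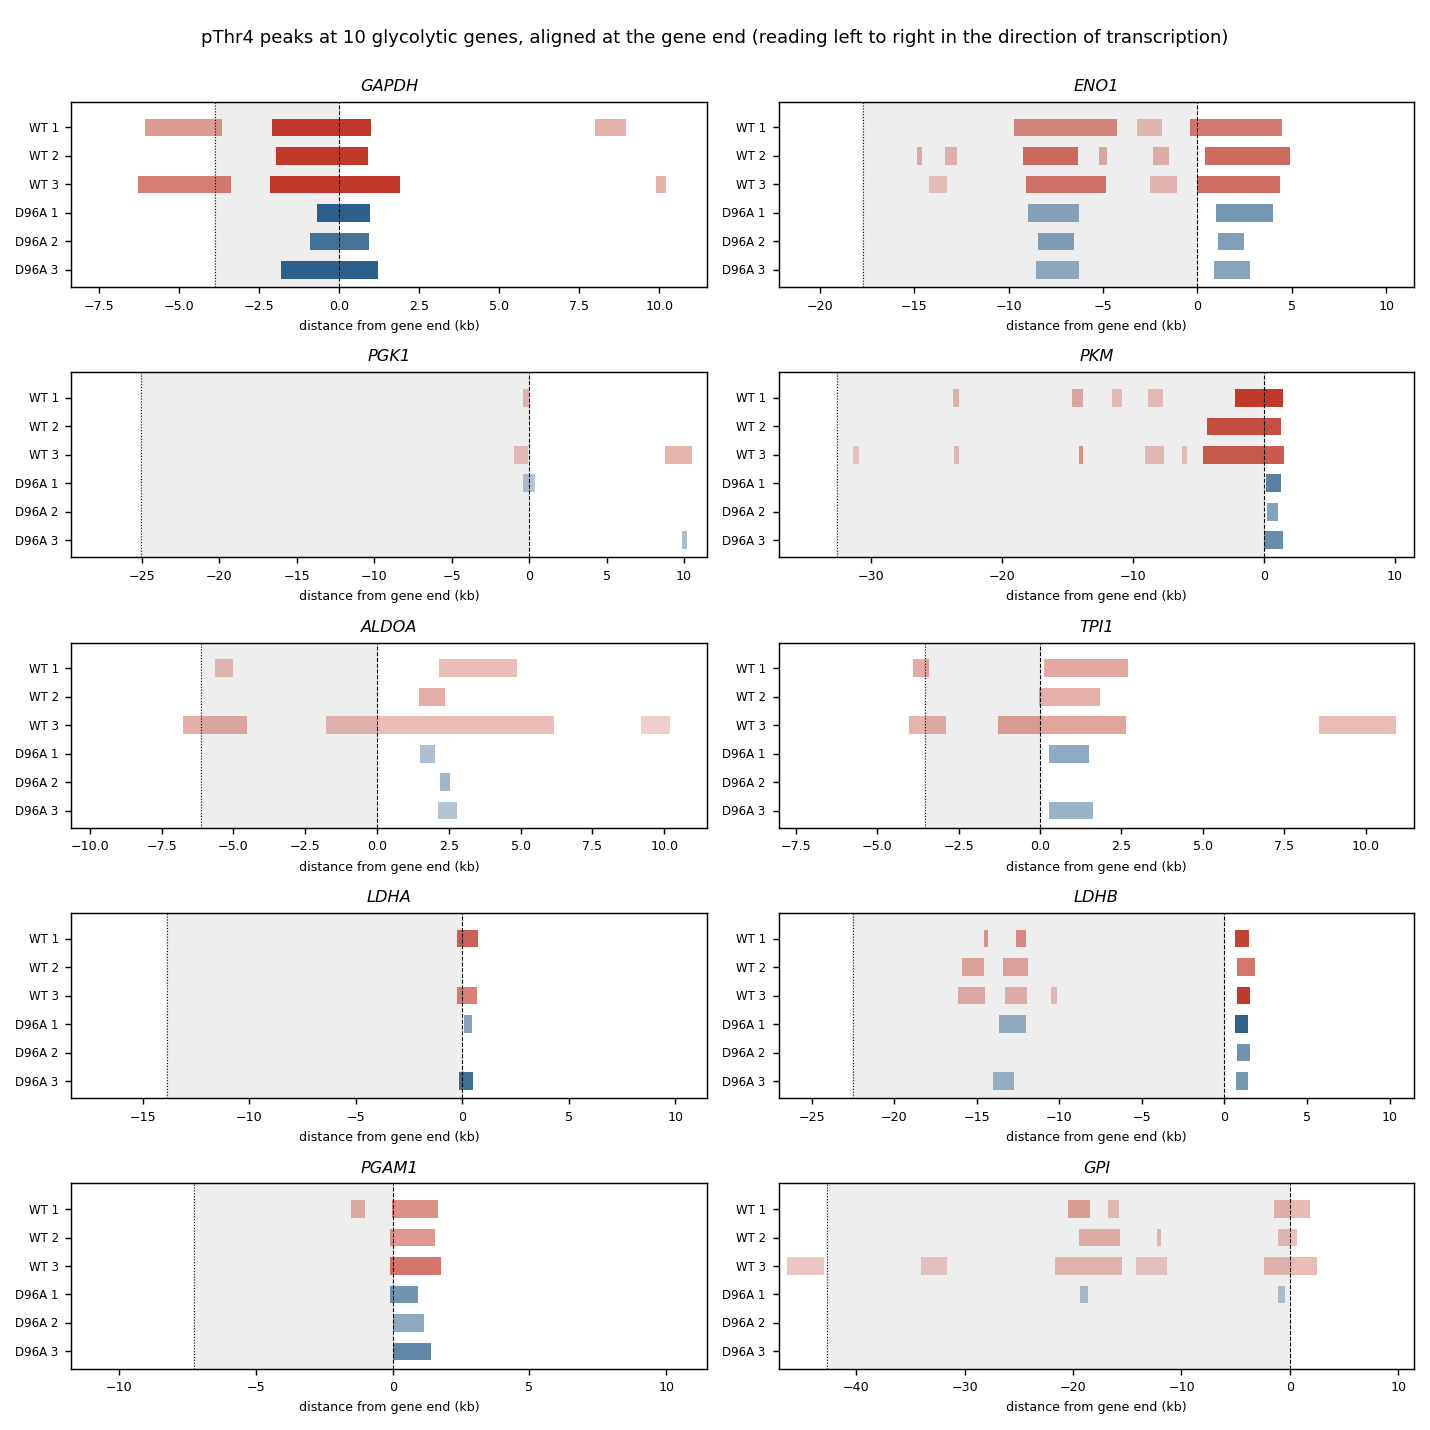
Peaks of 6 libraries at the 10 glycolytic genes, with distance from the gene end in kb on the horizontal axis and transcription running left to right. Grey marks the gene, the dotted line its first base and the dashed line its last base. Red bars are active SCP1 libraries (WT), blue bars inactive ones (D96A), and a darker bar has a higher fold enrichment. Bars crowd around the dashed line in both groups, while bars inside the grey gene body and at the dotted line are mostly red.

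Between the groups, the peaks at the same genes covered more bases and were more numerous with active SCP1. Peaks covered 14.7%, 11.3% and 24.3% of the 10 windows in the active libraries (16.8% ± 6.74, SD, n = 3). In the inactive libraries they covered 5.70%, 2.90% and 5.23% (4.61% ± 1.5, SD, n = 3). All active values lay above all inactive values, with a ratio of means of 3.64. Restricted to replicates 1 and 2, the means were 13.02% and 4.30%, and with replicates 2 and 3, an alternative chosen after seeing the data, they were 17.8% and 4.06%. Over all protein-coding genes mean cover was 2.14% and 0.277%, a ratio of 7.70. The number of peaks per library averaged 24.7 ± 7.51 and 10.3 ± 3.06 (SD, n = 3), a ratio of 2.39. The groups did not overlap in this either, nor did they over all protein-coding genes, where the ratio was 6.35.

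When each list was reduced to its 1163 strongest peaks, the number of peaks in the windows no longer differed much between the groups, with means of 8.33 and 8, while the cover remained 8.60% against 3.95%. With a common −log10 p-value of at least 6 the means were 9.67 and 7 peaks and 9.73% and 3.56% cover. The difference in cover between the groups was thus still present among peaks of matched number, and the difference in peak number was nearly gone. Both cuts dropped whole peaks and left the edges of the others as called, so peak width was not matched. Whether the weaker cutoff of the active lists also widened their peaks was not tested.

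The number of genes with any peak overlapped between the groups. All 10, 8 and all 10 genes had a peak with active SCP1, and all 10, 6 and 9 had one with inactive SCP1. Among all protein-coding genes the shares were 41.5%, 30.1% and 65.9% against 16.2%, 8.23% and 17.2%. Without the second inactive library, which had the shortest list, the difference in means changed from 1 to −0.167 genes. In all, 6 genes had a peak in all 6 libraries (GAPDH, ENO1, PKM, ALDOA, LDHB and PGAM1), against a background of 7.12% of all protein-coding genes. None of the 10 had a peak in all active libraries and in no inactive library, a pattern seen in 8.9% of all genes.

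By zone, the gene ends had the most cover and the gene bodies differed by more in proportion than the gene ends. The 2 kb around the gene ends were covered to 56.2% ± 14.0 with active SCP1 and to 26.6% ± 6.57 with inactive SCP1 (SD, n = 3). Gene bodies, without the outer 1 kb at each end, were covered to 14.2% ± 5.73 and 2.47% ± 1.11. From 1 to 10 kb downstream the cover was 13.5% ± 5.98 and 4.44% ± 1.41, and around the starts it was 11.9% ± 12.4 and 0%. In all protein-coding genes the means were 11.4% and 2.59% at the ends, 1.16% and 0.0830% in the bodies, 6.44% and 1.05% downstream, and 4.62% and 0.701% at the starts. In every zone except the start, all active libraries lay above all inactive libraries at the glycolytic genes. Over all protein-coding genes this held in every zone, the start included, so the separation was not particular to the glycolytic genes.

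**Figure D2:**
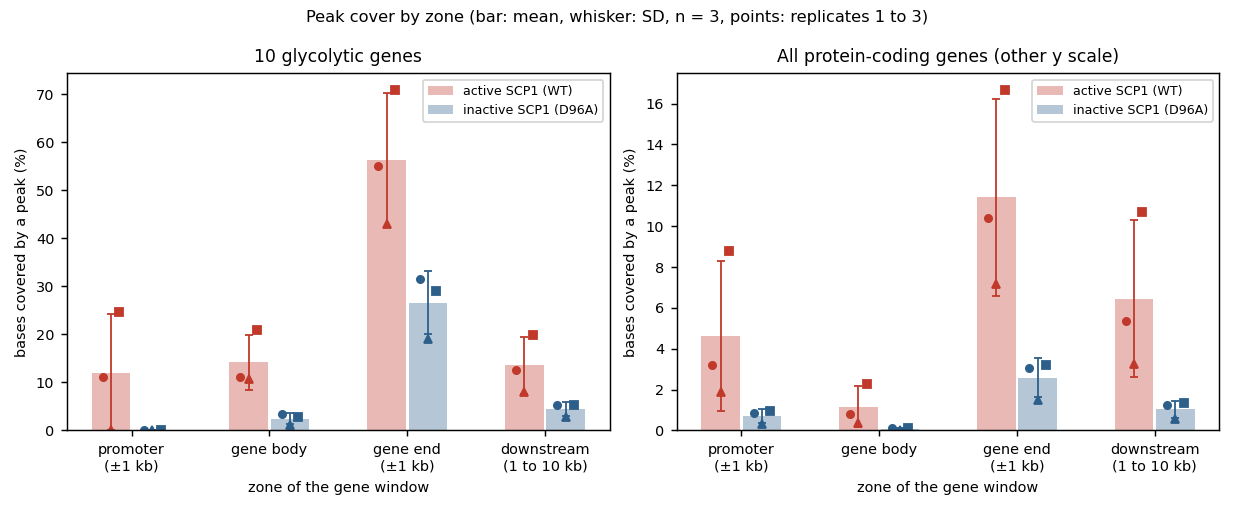
Percent of bases covered by a peak in 4 zones of the gene windows, for the 10 glycolytic genes (left) and for all protein-coding genes (right, other scale). Bars are means of 3 libraries, whiskers the SD (drawn no lower than 0) and points the libraries. The gene end is the most covered zone in both panels, at 56.2% with active and 26.6% with inactive SCP1 for the glycolytic genes, and no inactive library has cover at their starts.

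On the 2 sides of the gene ends the cover differed. In the last 1 kb of the genes, peaks covered 40.7%, 31.4% and 62.5% of bases with active SCP1, against 17.0%, 9.15% and 11.8% with inactive SCP1. In the first 1 kb past the ends they covered 69.4%, 54.5% and 79.1% against 46.1%, 29.1% and 46.3%. Cover was thus higher after the end than before it in each library, and the groups did not overlap on either side. Over all protein-coding genes both patterns held as well. There the mean cover before the end was 9.96% against 1.98%, and after it 12.9% against 3.2%, active values first. Of the 26 end peaks of the active libraries 19 spanned the last base of the gene, 5 began past it and 2 stopped before it. Of the 20 end peaks of the inactive libraries 7 spanned it, 12 began past it and 1 stopped before it. Over all protein-coding genes 46.7% of end peaks spanned the last base and 36.7% began past it with active SCP1, against 33.2% and 49.9% with inactive SCP1.

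The length covered in a gene window gives 1 value per gene and library, and a two-sided permutation test enumerated exactly the 20 ways to divide 6 libraries. The smallest p-value that this design can give is 0.1, so no gene could pass 0.05. In 6 of the 10 genes (ENO1, PKM, ALDOA, TPI1, PGAM1 and GPI) every active library had a greater covered length than every inactive library, each with p = 0.1 (exact permutation). Over replicates 1 and 2 alone it was 7 genes, GAPDH being the addition, and no background is given for that setting. With all 6 libraries the background was 23.5% of all protein-coding genes, and 81.3% of those with a peak in all 6 libraries. Of the 6 glycolytic genes with such peaks, 4 had the pattern. In the other 4 of the 10 genes the groups overlapped, with exact permutation p-values of 0.2 (GAPDH), 0.3 (LDHB), 0.6 (LDHA) and 0.7 (PGK1). After Benjamini-Hochberg adjustment over all genes the lowest adjusted p of the exact permutation test among the 10 was 0.426. No gene of the 10 was higher in every inactive library.

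**Figure D3:**
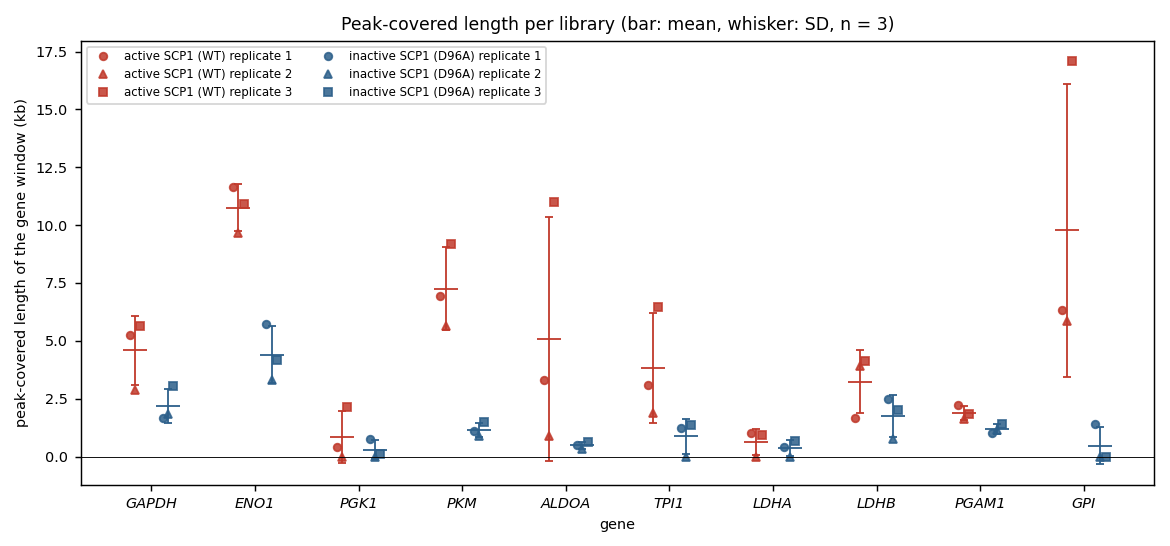
Length of each gene window covered by peaks, in kb, for the 3 active (red) and 3 inactive (blue) libraries. Points are libraries, the horizontal bar is their mean and the whisker the SD. In ENO1, PKM, ALDOA, TPI1, PGAM1 and GPI all red points lie above all blue points, and in GPI and ALDOA replicate 3 lies far above the other active libraries.

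In the order of the pathway, GPI comes first and converts glucose 6-phosphate to fructose 6-phosphate. The gene lies at chr19:34359718-34402413 on the plus strand and was the longest of the 10, at 42.7 kb. Peaks covered 6348, 5868 and 17098 bp of its window with active SCP1 and 1390, 0 and 0 bp with inactive SCP1. In 2 of the inactive libraries GPI had no peak, and the third active library was far above the other two. Its end peak spanned the last base in each active library, from 1428, 1069 and 2379 bp before the end to 1866, 683 and 2467 bp past it. The fold enrichment of this peak was 3.24, 3.07 and 3.18, and the only inactive counterpart, in replicate 1, had 3.28 and ended 466 bp before the gene end. A fold enrichment is relative to the background of its own library and has no common scale across lists of unknown depth, so values set side by side here and below are descriptions with that limit. A further region at chr19:34380709-34386968, in the middle of the gene, was listed in 3 active libraries and 1 inactive library. PDCD2L begins 1986 bp past the end of GPI on the same strand, and the end peak of active replicate 3 reached into it. With lists of equal length the GPI difference fell to 463 bp, with p = 1 in the exact permutation test, and without active replicate 3 it was 5645 bp.

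ALDOA splits fructose 1,6-bisphosphate into a pair of trioses, and its gene lies at chr16:30064279-30070420 on the plus strand. Its peaks mostly lay beyond the gene end. Only active replicate 3 had a peak within 1 kb of the end, a 7956 bp peak that ran from 1780 bp before it to 6175 bp past it. In the other libraries the peak lay farther downstream, beginning 2171 and 1462 bp past the end with active SCP1 and 1504, 2211 and 2143 bp past it with inactive SCP1. This downstream region was the only place where ALDOA had a peak in the inactive libraries, with a fold enrichment of 3.47, 3.74 and 3.30.

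Peaks covered 3314, 894 and 10991 bp of the ALDOA window with active SCP1 and 504, 341 and 639 bp with inactive SCP1. The groups did not overlap, although active replicate 3 made up most of the active mean, and without it the difference fell from 4572 to 1609 bp. Among lists of equal length no active library kept an ALDOA peak and the difference was −114 bp, so the result for this gene rested on weak peaks. A promoter peak was listed in active replicates 1 and 3, from 510 to 1119 bp past the gene start and from 623 bp before it to 1615 bp past it. The readthrough gene LOC112694756 covers ALDOA on the same strand, and peaks there cannot be told apart between these transcripts. PPP4C begins 5574 bp past the end of ALDOA, under the long peak of active replicate 3.

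TPI1 interconverts the trioses made by aldolase. Its gene, at chr12:6867420-6870948 on the plus strand, was the shortest of the 10 at 3.53 kb. The end peak was listed in all active libraries and in inactive replicates 1 and 3, with a fold enrichment of 3.67, 3.49 and 3.79 against 4.12 and 3.86. Fold enrichment was thus no higher with active SCP1, while the peaks were longer, at 2569, 1882 and 3929 bp against 1237 and 1363 bp. Covered length was 3086, 1882 and 6473 bp with active SCP1 and 1237, 0 and 1363 bp with inactive SCP1, which did not overlap. Without active replicate 3 the difference fell from 2947 to 1617 bp. The convergent gene SPSB2 overlaps the last bases of TPI1 and runs to 2355 bp past its end, so the TPI1 end peaks lay over SPSB2 in 5 libraries. A farther peak of active replicate 3 lay over the noncoding gene LOC105369632.

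At the start of TPI1 a peak of 517 bp in active replicate 1 ran from 380 bp before the first base to 136 bp past it. In active replicate 3 the promoter peak ran from 479 bp before to 646 bp past, and both overlapped the sequence printed above. Their fold enrichment was 3.61 and 3.42. No inactive library and not active replicate 2 had a peak there.

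GAPDH, which oxidises glyceraldehyde 3-phosphate, had the peak with the highest fold enrichment of the 105. The gene lies at chr12:6534517-6538371 on the plus strand. Its end peak had a fold enrichment of 7.59, 6.58 and 7.13 with active SCP1, against 6.80, 5.87 and 6.57 with inactive SCP1. By −log10 p-value it ranked 40, 70 and 80 in the active lists and 50, 47 and 73 in the inactive lists, so it stood near the top of each. The fold enrichments overlapped between the groups (means 7.10 ± 0.506 and 6.41 ± 0.485, SD, n = 3, exact permutation p = 0.2).

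The extent of the GAPDH end peak differed on its gene side. It began 2078, 1965 and 2146 bp before the gene end with active SCP1 and 678, 915 and 1817 bp before it with inactive SCP1. Every active peak thus began farther upstream than every inactive one (exact permutation p = 0.1), a pattern that 60.6% of the 663 genes with an end peak in all 6 libraries shared. Its far edge lay 1018, 915 and 1907 bp past the end against 971, 942 and 1225 bp, which overlapped. IFFO1, a convergent gene whose last base lies 590 bp past the end of GAPDH, lay under this peak in all 6 libraries.

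A promoter peak of GAPDH was listed in active replicates 1 and 3. It ran from 2196 bp before the gene start to 207 bp past it, and from 2432 bp before to 487 bp past, with a fold enrichment of 4.03 and 4.75. Most of its length lay over the divergent noncoding gene GAPDH-DT, and ChIP peaks carry no strand. GAPDH-DT starts 110 bp before the first base of GAPDH and runs away from it on the minus strand. The start that the RefSeq promoter table lists for GAPDH is 747 bp past the gene boundary, downstream of both peaks. Covered length in the whole window was 5256, 2881 and 5649 bp with active SCP1 and 1650, 1858 and 3043 bp with inactive SCP1, and the groups overlapped.

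PGK1, which makes the first ATP of the pathway, had peaks in 4 of the 6 libraries. Its gene lies at chrX:78104248-78129295 on the plus strand and is 25.05 kb long. Peaks covered 400, 0 and 2132 bp of the window with active SCP1 and 758, 0 and 99 bp with inactive SCP1. Replicate 2 of either group had no PGK1 peak, and the groups overlapped. The difference was −179 bp for replicates 1 and 2 alone, and without active replicate 3 it was −85.7 bp, against 558 bp in all libraries.

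The PGK1 end peaks were short and weak. They had a fold enrichment of 3.17 and 2.93 in active replicates 1 and 3 and of 3.26 in inactive replicate 1, and both active peaks stopped just before the gene end, at 22 and 90 bp. The strongest PGK1 window peaks of active replicate 3 and inactive replicate 3 lay 8780 and 9902 bp past the end, next to the start of the convergent gene TAF9B at 10355 bp. No peak within 1 kb of the start was listed in any library.

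PGAM1 moves the phosphate of 3-phosphoglycerate, and its gene lies at chr10:97426191-97433444 on the plus strand. It had an end peak in all 6 libraries at nearly the same place. The peak began within 94 bp of the gene end in each library and reached 1653, 1533 and 1752 bp past it with active SCP1 and 932, 1152 and 1418 bp with inactive SCP1. Each active peak therefore reached farther downstream than each inactive peak (exact permutation p = 0.1), as in 56.9% of the 663 genes with an end peak in all libraries.

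The strength of the PGAM1 end peak showed no such order. Its fold enrichment was 4.31, 4.09 and 5.00 with active SCP1, against 4.83, 4.17 and 5.25 with inactive SCP1. The means were 4.47 ± 0.472 and 4.75 ± 0.543 (SD, n = 3, exact permutation p = 0.6). Covered length was 2215, 1628 and 1842 bp against 1024, 1141 and 1414 bp, which did not overlap.

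ENO1, which makes phosphoenolpyruvate, had the most cover of the genes under inactive SCP1. The gene lies at chr1:8861000-8878686 on the minus strand. Peaks covered 11665, 9651 and 10919 bp of its window with active SCP1 and 5715, 3288 and 4179 bp with inactive SCP1. The difference of 6351 bp was 6157 bp for replicates 1 and 2 alone. No other RefSeq gene lay within 10 kb past its end.

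The downstream peak of ENO1 reached 4489, 4914 and 4378 bp past the gene end with active SCP1. With inactive SCP1 it reached 3984, 2490 and 2789 bp, and in replicate 2 it began 1096 bp past the end and so fell outside the 1 kb zone. Near edges lay at −383, 397 and −19 bp from the gene end with active SCP1 and at 966, 1096 and 885 bp with inactive SCP1, so the active peaks began closer to the gene or inside it. Fold enrichment was 4.86, 5.26 and 5.19 against 4.74, 4.48 and 4.33.

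Inside ENO1 lay the strongest internal region of the 10 genes, at chr1:8865262-8870706, and it was listed in all 6 libraries. The miRNA gene MIR6728 lies inside it, under a peak in 2 libraries. Its main peak ran from 7980 to 13424 bp past the gene start in active replicate 1, from 8427 to 11367 bp in replicate 2 and from 8636 to 12832 bp in replicate 3. With inactive SCP1 it ran from 8730 to 11425, 9250 to 11142 and 9153 to 11426 bp. Fold enrichment was 4.45, 5.21 and 4.94 against 4.204, 4.36 and 3.98, and the active values lay above the inactive ones. No background over all genes is given for that order in internal regions. A weaker region from 14495 to 16610 bp was listed in the 3 active libraries and in no inactive one.

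PKM, which makes pyruvate, had the widest difference in end peak extent among the 4 genes with an end peak in all 6 libraries. The gene lies at chr15:72199029-72231591 on the minus strand and is 32.6 kb long. Its end peak began 2238, 4362 and 4646 bp before the gene end with active SCP1. With inactive SCP1 the near edge was at 202, 238 and −14 bp, so the peak lay almost wholly past the end. The far edge hardly moved, at 1473, 1276 and 1531 bp against 1308, 1106 and 1472 bp.

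The width of the PKM end peak was 3712, 5639 and 6178 bp with active SCP1 and 1107, 869 and 1487 bp with inactive SCP1. The ratio of the means was 4.48 (5176 ± 1297 and 1154 ± 312 bp, SD, n = 3, exact permutation p = 0.1). Replicates 1 and 2 alone gave a difference of 3688 bp. PKM was also the only gene of the 4 with an end peak in all libraries whose end peak had a higher fold enrichment in each active library, at 6.73, 5.96 and 5.67 against 5.48, 4.39 and 5.06 (exact permutation p = 0.1). The background for that was 25.2%. Peaks farther inside PKM were listed in active replicates 1 and 3 alone, 4 and 5 of them, with a fold enrichment of 2.60 to 4.06. GRAMD2A begins 1242 bp past the end of PKM on the same strand, under the far edge of the peak in 5 libraries.

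LDHA reduces pyruvate to lactate. Its gene, at chr11:18394563-18408425 on the plus strand, had a single narrow peak at the end in replicates 1 and 3 of both groups. The peak was 996 and 909 bp wide with active SCP1 and 405 and 671 bp wide with inactive SCP1, with a fold enrichment of 5.49 and 4.68 against 4.40 and 6.04. Neither group was consistently stronger, and replicate 2 of either group had no LDHA peak. No peak was listed in the body or at the start of LDHA in any library.

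LDHB, whose chain favours the reverse reaction, lies at chr12:21635342-21657842 on the minus strand. Its end peak lay wholly past the gene end in all 6 libraries, beginning 667, 754 and 767 bp past it with active SCP1 and 613, 783 and 710 bp with inactive SCP1. Fold enrichment was 6.29, 4.92 and 7.14 against 6.42, 4.88 and 4.75, which overlapped. The width was 797, 1080 and 795 bp against 821, 758 and 727 bp, also overlapping (mean difference 122 bp, exact permutation p = 0.3).

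Within the LDHB body a region from 8473 to 10594 bp past the start was listed in 3 active and 2 inactive libraries. A neighbouring region from 6370 to 8197 bp was listed in the 3 active libraries alone. Covered length in the window was 1661, 3897 and 4148 bp with active SCP1 and 2470, 758 and 2023 bp with inactive SCP1, and the groups overlapped. With lists of equal length only the end peaks were left and the difference fell from 1485 to 122 bp.

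**Figure D4:**
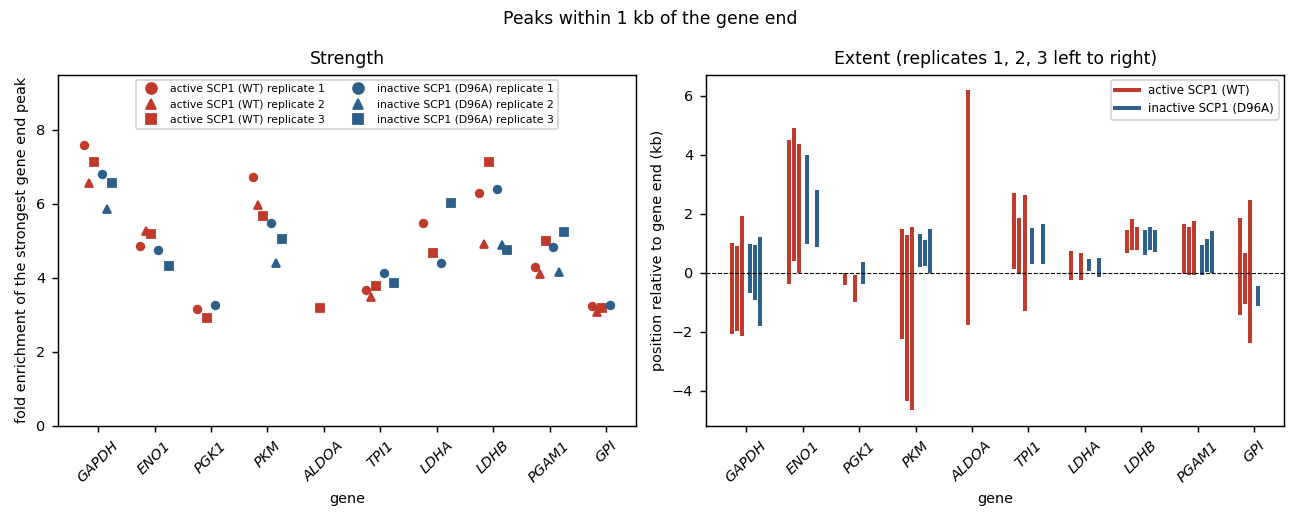
The strongest peak within 1 kb of the gene end at each gene. The left panel shows its fold enrichment (points, by library) and the right panel its extent relative to the gene end in kb (bars, with replicates 1, 2 and 3 from left to right, and a gap where none was listed). Strength overlaps between red (active) and blue (inactive) in most genes, while the red bars of PKM and GAPDH reach farther into the gene.

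The 4 genes with an end peak in all libraries (GAPDH, PKM, LDHB and PGAM1), against a background of 3.38%, allowed position and strength to be set side by side. The end peak was wider in every active library in 2 of them (PKM and PGAM1), where 73.8% of all such genes had that pattern. It began farther upstream in 2 (GAPDH and PKM) and reached farther downstream in 1 (PGAM1). The −log10 p-value was higher in every active library in 2 (GAPDH and PKM), against 38.2%. Width here and in the 73.8% ran between the outermost edges of all peaks within 1 kb of the end, gaps included. Over all 663 such genes the median width per library was 4498, 3393 and 6265 bp with active SCP1 and 1842, 1120 and 1937 bp with inactive SCP1. Over the 4 glycolytic genes it was 2389, 2255 and 2948 bp against 1066, 1005 and 1451 bp. Lists of equal length gave the same genes for each of these widths and edges, but could not have done otherwise. Each of these end peaks ranked 787 or better in its list, so a cut at 1163 peaks kept it with its edges unchanged.

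An end peak in all 3 active libraries was found in 7 of the 10 genes, against a background of 12.6%, and the exceptions were PGK1, ALDOA and LDHA. The number of genes with an end peak overlapped between the groups (means 8.67 ± 1.53 and 6.67 ± 2.52, SD, n = 3). For replicates 1 and 2 alone the means were 8 and 6.5. Without inactive replicate 2 the difference of 2 genes fell to 0.667. A peak 1 to 10 kb past the end was listed in 8, 6 and 9 genes against 5, 5 and 8. Among all protein-coding genes the shares were 26.5%, 18.8% and 42.9% against 9.61%, 4.84% and 10.2%. Of the 10, 4 genes had one in all libraries, against 4.02%. That difference of 1.67 genes ranged from 1 to 2.67 as libraries were left out in turn, lowest without active replicate 3 and highest without inactive replicate 3.

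Near gene starts the record was different. A peak within 1 kb of the start was listed in 3, 0 and 4 of the genes with active SCP1 and in none with inactive SCP1. GAPDH, ALDOA and TPI1 had one in 2 active libraries, against a background of 3.86%, and GPI had one in active replicate 3 alone. In any active library the count was 4 of 10, against 20% of all genes, and in any inactive library it was 0 of 10, against 3.08%. Active replicate 2 had none, so the groups overlapped at 0. Without that library the difference rose from 2.33 to 3.5 genes, and without active replicate 3 it fell to 1.5, which was also the value for replicates 1 and 2 alone.

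These promoter peaks were of modest strength, with a fold enrichment of 2.94 to 4.75. With lists of equal length 1 of the 7 was left and the difference fell to 0.333 genes, and with a common −log10 p-value it was 0.667. The GPI peak lay from 3732 to 299 bp before the gene boundary, and the start that the promoter table lists for GPI is 5274 bp past that boundary. When a peak within 1 kb of any listed start was counted as well, an alternative chosen after seeing the data, the difference was 2.67 genes and PKM was added in 1 active library.

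When overlapping peaks of all libraries were merged, the 10 windows held 36 regions. Of these 7 were listed in all 6 libraries, namely the end or downstream region of GAPDH, ENO1, PKM, ALDOA, LDHB and PGAM1 and the internal region of ENO1. A further 22 were listed in active libraries alone, 12 of them in 1 library, 8 in 2 and 2 in all 3. No region was listed in inactive libraries alone. Of the 41740 merged regions of the whole lists 92.4% were found in active libraries alone, 0.800% in inactive libraries alone and 1.96% in all 6. The 2 regions found in each active and no inactive library lay inside ENO1 and LDHB. Among all 41740 merged regions 3.98% had this pattern.

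Reads of processed pseudogenes can be misplaced between copies, and RefSeq lists 102 pseudogenes named after these genes, 63 of them after GAPDH. None had a peak in 5 of the libraries, and 4 had one in active replicate 3 (ENO1P1, PGK1P2, TPI1P3 and PGAM1P5). How multiply mapped reads were treated is not given in the sources used here.

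Among 30 other genes of glycolysis and its control, 17 had a peak in an active library and 8 in an inactive library, against 67.8% and 21.3% of all protein-coding genes, and 13 had none. Covered length was higher in every active than in every inactive library in 10 of the 30, with a background of 23.5%, and an end peak in all active libraries was listed in 3 (PGAM2, PFKP and PFKL). PFKL, the liver-type phosphofructokinase, was the only one with an end peak in all 6 libraries, with a fold enrichment of 4.91, 4.63 and 5.61 against 4.84, 4.16 and 4.81. Peaks covered 17646, 12324 and 27980 bp of its window with active SCP1 and 4803, 3371 and 5816 bp with inactive SCP1, more than at any of the 10 enzymes above in the active libraries.

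PFKP, the platelet-type isoform, had 17549, 12398 and 26498 bp of cover against 478, 0 and 1348 bp, with an end peak in the active libraries only. PGAM2, the muscle form of the mutase, had a peak near its start in all 6 libraries and 4552, 4219 and 6370 bp of cover against 2687, 2544 and 2577 bp. These values also did not overlap, and whether the PGAM2 peaks belong to a neighbouring gene was not tested. ENO3, the muscle enolase, had 4472, 3802 and 7562 bp against 159, 0 and 885 bp.

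Among regulators and tissue-specific forms, PFKFB3, which makes the activator of phosphofructokinase, had 6973, 3087 and 19705 bp of cover against 0, 0 and 1449 bp. TIGAR, which removes that activator, had 512, 1132 and 3217 bp against 0, 253 and 0 bp, with a promoter peak in all active libraries. ADPGK, an ADP-dependent glucokinase, had 1993, 577 and 6638 bp against 395, 0 and 0 bp. GAPDHS, the sperm form of GAPDH, had 7020, 2502 and 10415 bp against 1191, 0 and 1079 bp, with a promoter peak in 3 active and 2 inactive libraries.

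HK1 and ENO4 had peaks in each active library and in no inactive library. HK2, HK3, PKLR and ALDOC had a peak in 2 active libraries and no inactive library, with at most 2280 bp of cover in a library. The hexokinases start the pathway by trapping glucose in the cell, and none of them had an end peak in more than 1 active library.

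Of 8 transporters of glucose and lactate 6 had a peak in an active library and 2 in an inactive library, against the same 67.8% and 21.3%. SLC2A1, the glucose transporter of most cells, had a narrow end peak, with 1032, 682 and 777 bp of cover against 464, 0 and 405 bp. SLC16A3, a lactate exporter, had 8318, 5619 and 14695 bp against 947, 0 and 1178 bp, and its relative SLC16A8 had 7106, 2334 and 13497 bp against none. SLC16A1 had 2939, 1833 and 3300 bp with active SCP1 and none with inactive SCP1. Covered length did not overlap between the groups in these 4 transporters, as in 23.5% of all genes.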

How the data were processed

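The 6 lists were deposited by the authors in the broad-peak layout of MACS, 1 list per library. Per the submitters' processing notes, FastQC, cutadapt 4.6, Bowtie2 2.5.2 and the hg38 build were used on paired-end reads, and the caller's version, control and read filters are not given in the sources used here. For each peak the authors deposited a score, a fold enrichment (a ratio over background) and the p-value and q-value as −log10. The deposited score repeats the q-value and was not used. Read counts were not analysed here, so depth is unknown and precision rests on 3 libraries per group. Fold enrichment is relative to each library's own background, and comparisons of it across lists carry that limit.

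Genes, starts and ends came from RefSeq (GRCh38.p14), with strand for 19626 of 19970 protein-coding genes, 3814 of them by GENCODE gene name. The genome supplied was GRCh37, so no peak sequence and no exon or intron class was read. A peak counted with 1 bp of overlap, within 1000 bp for starts and ends. Distances are from the outermost gene boundary, in the direction of transcription. Groups came from the labels and were compared by exact permutation over libraries and by counts against all protein-coding genes. No identical peak was shared between lists. Alternatives were stricter q, equal peak number, a common p cutoff, peak centres, a shorter window, replicates 1 and 2 alone, each library left out and, chosen after seeing the data, any listed start and replicates 2 and 3 alone. The members and gene lists were chosen with earlier results of these data known. Other genes are named where their start or end lies in a window under a peak, or where they are on the pathway lists with a peak in at least 2 libraries of a group. Replicates are labelled biological, and each p-value is the share of relabellings of these libraries with a difference at least as large. Analyses used Python 3.11.15, numpy 2.4.6 and pandas 2.3.3, and the scripts were tested on simulated data.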

Additional observations from a re-analysis of the deposited data

How the results depend on the processing

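Differences are means with active SCP1 minus means with inactive SCP1, and the cause of the shifts below was not tested. The number of peaks in the windows differed by 14.3 as reported, by 6.67 with the q cutoff raised to 2 on the −log10 scale, by 0.333 with equal peak number and by 2.67 with the common p cutoff. Cover differed by 12.2 percentage points, by 4.66 with equal peak number and by 6.17 with the common p cutoff. Genes with a promoter peak differed by 2.33, by 0.333 and by 0.667 in the same order. Genes with any peak differed by 1, and leaving out each library gave −0.167 to 1.83. For covered length, ALDOA turned to −114 bp with equal peak number, and PGK1 turned to −179 bp for replicates 1 and 2 alone and ranged from −85.7 to 980 bp as libraries were left out. The 6 genes whose covered length did not overlap became 4 to 8 over all alternatives, for which no background is given. With replicates 2 and 3 alone, chosen after seeing the data, no difference changed sign. Deviations of same-numbered libraries had correlations of 0.0707, −0.162 and −0.163 over 13336 genes, and those of unlike-numbered libraries ranged from −0.157 to 0.291. With 3 libraries per group and lists of very unequal length, these values cannot show whether libraries were paired. The labels do not tie a number to a lysate, so the main comparison is unpaired. With the replicate block each covered-length difference was unchanged (2412 bp for GAPDH, 6102 bp for PKM) and the exact sign-flip p was 0.25 to 1, where 0.25 is the smallest that 3 pairs can give. Depth is unknown, so a gene without a listed peak was not detected at these cutoffs.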
